A study of Mus musculus with 23 samples.

Results

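The genes described here encode parts of the motile cilium, the beating hair on the surface of ciliated airway cells, together with transcription factors and other genes that mark those cells. They were chosen by name from knowledge of the cilium, with earlier results of these data known. Of the 40 listed genes 39 were measured. Sntn, the remaining one, had no probe set annotated with its symbol alone. Each gene was read from its brightest probe set by the mean over all arrays, and the same choice gave 18193 genes in the whole series. The arrays held total RNA of the whole right lung from C57BL/6 (B6) and BALB/c (BALB) mice of both sexes. In each strain the control mice were CF+/+ and the cystic fibrosis (CF) mice were CF-/-. Every combination of strain, sex and genotype had 3 arrays except the B6 CF males, which had 2, for 23 arrays in all. The mutant allele, the age of the mice and any treatment were not given in the sources used here. The labels leave unsaid whether replicate arrays are of different mice, so the p-values below measure only the spread between these samples.

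A motile cilium is built on an axoneme, a ring of microtubule doublets around a central pair. Dynein arms on the doublets slide them against each other, and radial spokes, the central apparatus and the nexin-dynein regulatory complex turn that sliding into a beat. Foxj1 is the transcription factor that switches on the motile cilium program, and factors of the RFX family act with it at a promoter element called the X-box. In the conducting airways ciliated cells lie among secretory club cells and sweep mucus towards the throat. Failure of the cilia causes primary ciliary dyskinesia. In cystic fibrosis loss of the chloride channel CFTR leaves mucus that cilia clear poorly.

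The X-box is printed here because many of the measured genes held it near their start, and 1 other motif was searched. In RefSeq promoters of assembly GRCm38.p6, spanning 250 bases before to 50 bases after an annotated start, an X-box was counted where GTNNCC was followed by 0 to 3 bases of any kind and then NGNAAC, on either strand. Of the 33 measured members with a promoter entry, 17 (51.5%) held a match, against 6.81% of 14453 measured genes with an entry. The matches of the 3 genes with a match whose strain difference was most negative (Ccdc153, Enkur and Dynlrb2), of Hydin and of Rfx2, which did not differ by strain, are given 5′ to 3′ on the gene's own strand with the match in capitals. For Hydin the match reads on the opposite strand. Enkur held a further match with its first base at -12 from the start. That match begins in the lower-case end of the Enkur line and is not marked there.
Ccdc153 (chr9:44240532-44240567, plus strand): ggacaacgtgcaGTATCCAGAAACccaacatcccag
Enkur (chr2:21205367-21205403, minus strand): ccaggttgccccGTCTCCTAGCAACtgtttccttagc
Dynlrb2 (chr8:116504952-116504988, plus strand): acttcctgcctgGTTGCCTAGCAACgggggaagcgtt
Hydin (chr8:110266944-110266976, plus strand): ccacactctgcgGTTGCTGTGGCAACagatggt
Rfx2 (chr17:56831098-56831136, minus strand): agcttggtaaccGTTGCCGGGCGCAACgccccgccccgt
The forkhead sequence TGTTTAC, searched on both strands, was in 2 of the 33 promoters (6.06%), those of Mlf1 and Ak7, against 3.4% of the 14453 measured genes with an entry. It is shown in capitals for Mlf1, one of the genes that mark ciliated cells.
Mlf1 (chr3:67373969-67373999, plus strand): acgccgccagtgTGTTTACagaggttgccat
Among the other gene lists the X-box was in 5 of 13 promoters of further dyneins and their assembly factors (38.5%), 12 of 37 of further axoneme genes (32.4%) and 7 of 32 of genes of intraflagellar transport and the BBSome (21.9%). It was in 0 of 10 promoters of club cell genes and 0 of 8 of alveolar type 2 genes. A match is only a run of letters in this window.

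Values are on a log2 scale, so a difference of 1 is 2-fold. The medians of the arrays lay between 4.56 and 4.64, and correlations between arrays over all probe sets lay between 0.971 and 0.996. Some arrays were high in marker genes of other tissues, called here RNA of other tissues, though where it came from was not tested. Markers of squamous epithelium or skeletal muscle were high on 5 arrays. They were all 3 of the BALB CF females, 1 of the B6 control females and 1 of the B6 control males. On the B6 control female only the squamous list was above the limit of 0.3, at 0.42 against 0.28 for muscle. Intestinal markers were high on 7 arrays: all 3 of the BALB control males, 2 of the BALB control females, 1 of the BALB CF females and 1 of the B6 control females. Cftr, the gene mutated in cystic fibrosis, read 5.40 to 5.85 in BALB controls and 3.49 to 4.42 in BALB CF mice, without overlap. In B6 it read 4.04 to 4.58 in controls and 3.86 to 4.31 in CF mice, with overlap, and whether this probe set lies in the altered part of the gene is not given in the sources used here. The ciliated cell markers Foxj1, Mlf1 and Rsph1 read 5.45 or more on every array. Signals of different probe sets, and so of different genes, cannot be set against each other, and no background level was given in the sources used here.

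The motile cilium genes were lower in BALB than in B6 lungs, in controls and in CF mice alike. In controls 35 of the 39 members were lower in BALB and 0 were higher by limma at an adjusted p under 0.05, where 9.58% of all genes were called lower and 8.64% higher. In CF mice the count was again 35 lower and 0 higher, against 12.1% of all genes lower and 7.57% higher. The same 35 genes were called in both genotypes, against 6.64% of all genes, and all 39 differences were below 0 in each genotype. The median difference was -0.548 in controls, a ratio of 1.46, and -0.672 in CF mice, a ratio of 1.59, while the medians over all genes were 0.02 and 0.01. In RNA of a whole lung, fewer ciliated cells and less RNA per ciliated cell cannot be told apart.

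Foxj1, the regulator of the program, was measured at 6.85, 7.0 and 6.89 in B6 control females and 6.84, 7.19 and 7.10 in B6 control males. The BALB controls were at 6.19, 6.15 and 6.38 in females and 6.64, 6.66 and 6.45 in males. No BALB control reached a B6 control. The CF mice of B6 were at 7.07, 6.73 and 7.0 in females and 7.16 and 7.14 in males. Those of BALB were at 6.02, 5.46 and 5.85 in females and 6.02, 6.55 and 6.33 in males, again without overlap between strains. The strain difference was -0.57 ± 0.10 (SE) in controls, with adjusted p = 0.000213 by limma, and -1.01 in CF mice with adjusted p = 2.46e-07.

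Mlf1, a marker of ciliated cells, showed one of the widest gaps between the strains. In B6 it read 6.78, 7.05 and 6.83 in control females, 6.34, 6.82 and 6.73 in control males, 6.82, 6.59 and 6.75 in CF females, and 6.70 and 6.71 in CF males. In BALB it read 5.68, 5.45 and 5.87 in control females, 5.49, 5.52 and 5.73 in control males, 5.53, 5.91 and 5.96 in CF females, and 5.82, 5.78 and 5.89 in CF males. Every BALB array was below every B6 array. The strain difference was -1.13 ± 0.09 (SE) in controls, a ratio of 2.19 with adjusted p = 7.12e-09, and -0.90 in CF mice with adjusted p = 5.9e-07.

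Rsph1, a protein of the radial spoke head, read 7.99, 8.01 and 7.84 in B6 control females, 7.42, 7.58 and 7.41 in B6 control males, 7.75, 7.58 and 7.80 in B6 CF females, and 7.53 and 7.84 in B6 CF males. In BALB its values were 6.94, 6.87 and 6.98 in control females, 6.73, 6.88 and 6.95 in control males, 6.71, 6.56 and 6.67 in CF females, and 6.97, 7.01 and 7.0 in CF males. The strains did not overlap here either, and the B6 control females were above the B6 control males. The strain difference was -0.81 ± 0.06 (SE) in controls, with adjusted p = 3.37e-09, and -0.88 in CF mice with adjusted p = 2.77e-09.

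Ccdc153, a coiled-coil protein of the ciliary axoneme whose promoter match is printed above, had the most negative strain difference of the members. It lay between 8.50 and 9.26 on the B6 arrays and between 7.08 and 7.78 on the BALB arrays. No BALB array reached a B6 array. In controls the difference was -1.43 ± 0.09 (SE), a ratio of 2.69 with adjusted p = 6.67e-11, and in CF mice it was -1.50 with adjusted p = 9.73e-11. Counted from the most negative, it ranked 62 among the strain differences of 18193 genes in controls.

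**Figure D1:**
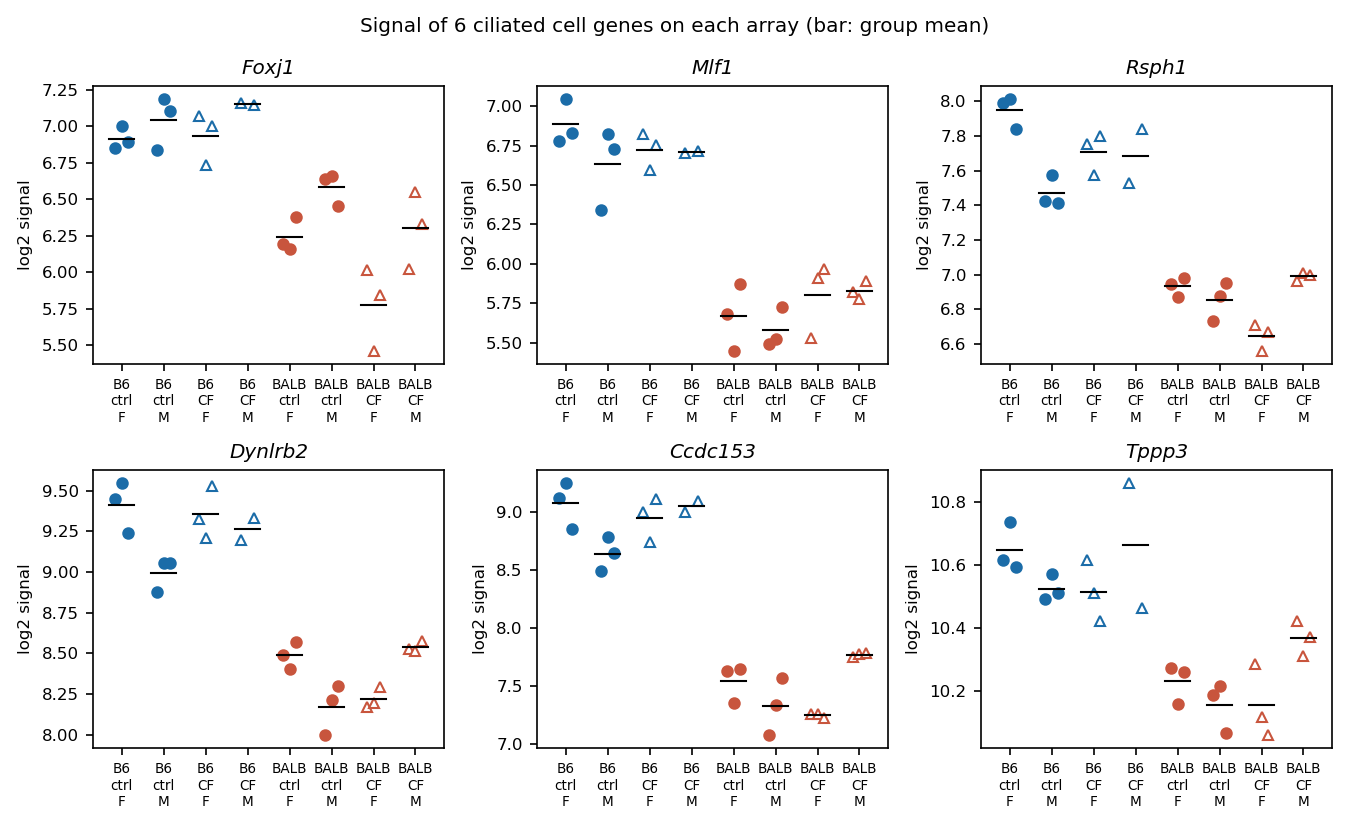
Log2 values of Foxj1, Mlf1, Rsph1, Dynlrb2, Ccdc153 and Tppp3 on each of the 23 arrays, by strain, sex and genotype. Filled circles are controls, open triangles are CF mice, and bars are group means. The B6 arrays of Foxj1, Mlf1, Rsph1, Dynlrb2 and Ccdc153 all lie above the BALB arrays.

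Among the dynein motors, all 5 members were lower in BALB in both genotypes, with medians of -0.44 in controls and -0.51 in CF mice. Dynlrb2, a dynein light chain of the roadblock family, lay between 8.88 and 9.55 in B6 and between 8.0 and 8.57 in BALB, with a difference of -0.88 ± 0.07 (SE) in controls and adjusted p = 4.18e-09. The outer arm heavy chains differed less, by -0.61 for Dnah5, -0.38 for Dnah9 and -0.44 for Dnah11 in controls. Tctex1d4, a light chain of the Tctex1 family, differed by -0.34 in controls and -0.65 in CF mice.

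The radial spoke head proteins Rsph1, Rsph4a and Rsph9 were all lower in BALB, with the lowest median of any role in controls, -0.81. Rsph4a differed by -0.82 and Rsph9 by -0.48 in controls, and by -0.98 and -0.69 in CF mice. Of the genes for the molecular ruler and the nexin-dynein regulatory complex, which set the spacing of the spokes and arms along a doublet, all 4 were lower. The ruler proteins Ccdc39 and Ccdc40 differed by -0.82 and -0.76 in controls. Drc1, the scaffold of the regulatory complex, differed by -0.66, and Iqcg, another subunit, by -0.55.

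Of the 8 proteins of the doublets and tektins, 7 were lower in BALB in each genotype, with a median of -0.59 in controls. Enkur, a protein inside the doublet, differed by -0.99 and Ccdc113 by -0.85. The tektins, filaments along the doublet wall, differed by -0.60 for Tekt1, -0.67 for Tekt2 and -0.41 for Tekt4. Pifo and Fam183b differed by -0.59 and -0.31. Mns1, a filament protein of the doublets, was the member of this role without a call, at -0.22 with adjusted p = 0.138 in controls and -0.29 with adjusted p = 0.0602 in CF mice.

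Docking, assembly and the central apparatus each had 2 of 3 members lower. Armc4, of the complex that docks outer dynein arms, differed by -0.49, and Zmynd10, a factor that assembles dyneins in the cytoplasm, by -0.31. Ccdc114, another docking protein, was at -0.19 with adjusted p = 0.118 in controls and -0.10 with adjusted p = 0.495 in CF mice. In the central apparatus Hydin differed by -0.55 and Spag16 by -0.45. Spag17, another central apparatus protein with a mean of 3.21, was at -0.22 with adjusted p = 0.205.

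The regulators had the smallest median difference of the roles in controls, -0.25 over Foxj1, Rfx2 and Rfx3, which is the value of Rfx3. Foxj1 itself was at -0.57 in controls and -1.01 in CF mice, as given above. Rfx3, an RFX factor needed for cilia, was at -0.25 with adjusted p = 0.0275 in controls and -0.32 with adjusted p = 0.00608 in CF mice. The control call on Rfx3 ended when any of 6 arrays was left out, with adjusted p between 0.0506 and 0.0859. Rfx2 was at -0.14 with adjusted p = 0.244 in controls and -0.11 with adjusted p = 0.395 in CF mice.

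The 10 further genes of ciliated cells were all lower in BALB, with medians of -0.58 in controls and -0.78 in CF mice. Ccdc153 and Mlf1, given above, and Capsl, a calcium-binding protein, were lowest in controls, with Capsl at -0.98. In CF mice Ccdc153 was followed by Meig1, at -1.13, and Capsl, at -1.11. Ak7, an adenylate kinase of cilia, differed by -0.62, Meig1, also needed in sperm formation, by -0.64, and Lrrc23, a radial spoke protein, by -0.55. Odf3b, Armc3 and Stk33 differed by -0.48, -0.41 and -0.40. Tppp3, a tubulin-binding protein, differed by -0.39 ± 0.06 (SE) with adjusted p = 0.000126.

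**Figure D2:**
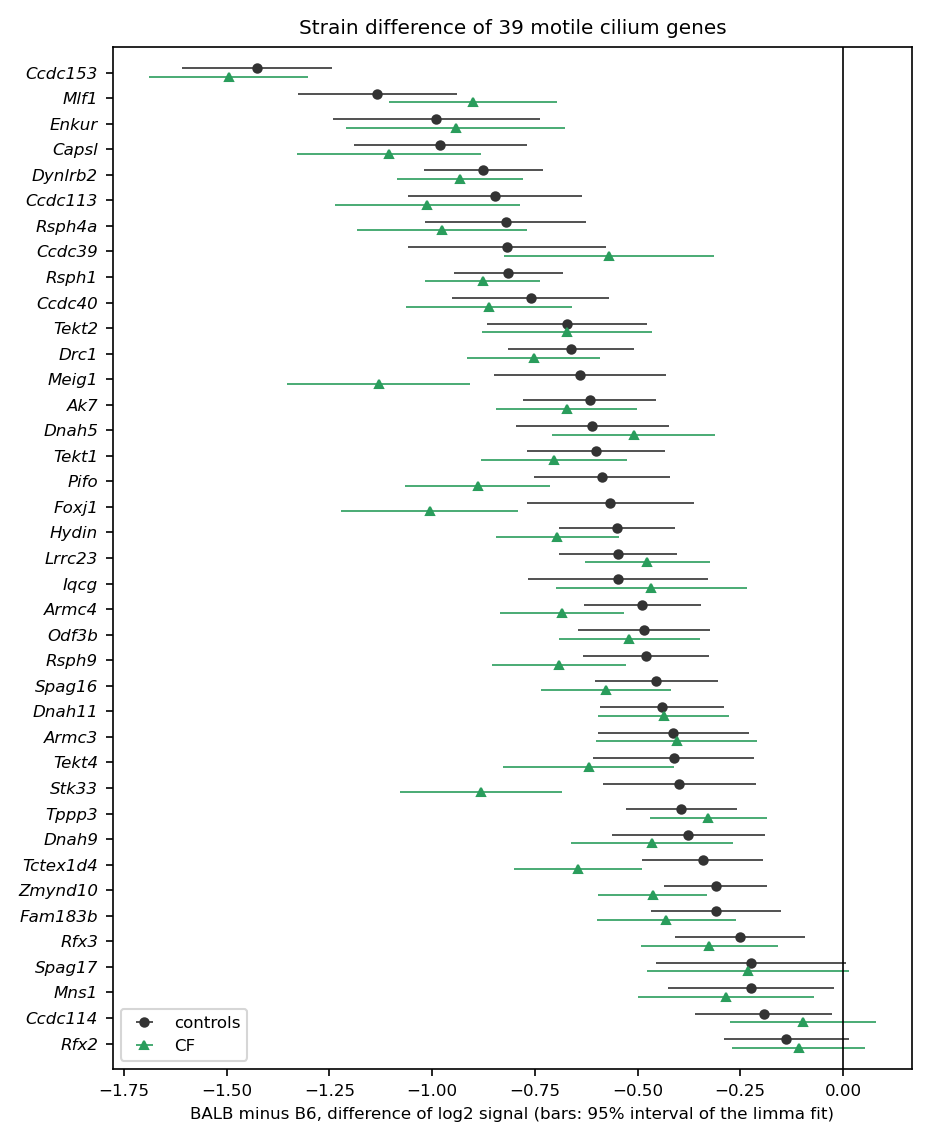
BALB minus B6 log2 difference of 39 motile cilium genes with 95% intervals, for controls (dark circles) and CF mice (green triangles). All points lie below 0, from -1.43 (Ccdc153) to -0.14 (Rfx2) in controls and from -1.50 (Ccdc153) to -0.10 (Ccdc114) in CF mice.

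A difference of 2-fold or more was reached by 2 members in controls, Ccdc153 and Mlf1, and by 5 in CF mice, Ccdc153, Meig1, Capsl, Ccdc113 and Foxj1. The share of all genes reaching that size was not counted. For 23 members the control arrays of the strains did not overlap, which was so, in the same direction, for 5.16% of all genes. For 28 members the CF arrays did not overlap, against 7.16%, and for 18 members no BALB array reached any B6 array over all 23, against 2.61%. These 18 were Foxj1, Mlf1, Dynlrb2, Rsph1, Ccdc40, Ccdc113, Ccdc153, Dnah11, Tekt1, Spag16, Pifo, Lrrc23, Hydin, Ak7, Capsl, Enkur, Armc4 and Drc1, which come from all of the roles given above.

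The strain difference was also present within each sex. In control females 31 members were lower in BALB, with a median of -0.65, where 5.99% of all genes were called lower. In control males 28 were lower, with a median of -0.44, against 5.99%. In CF females 36 were lower, with a median of -0.78, against 9.47%, and in CF males 24 were lower, with a median of -0.52, against 6.91%. In each of these 4 comparisons 18 members were called, against 2.44% of all genes, and 37 members were below 0 in each, against 15.8%.

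Marker genes of other tissues moved with some of these groups. The level of the squamous list, taken as the median over its genes of value minus gene median, was 0.75, 0.92 and 2.85 in the BALB CF females and at or below 0 in every other CF group. In CF mice 5 of 12 squamous and 7 of 12 muscle genes were higher in BALB, and in controls 8 of 11 intestinal genes were. In controls the squamous and muscle genes had medians of -0.87 and -0.61, with 1 of 12 called lower in BALB in each list. With the arrays rich in squamous and muscle RNA left out, the CF comparison rested on males alone and 26 members were lower in BALB. With those rich in intestinal RNA left out, the control comparison rested on females alone. It then held 1 BALB array, BALB control female 2, so no count is given. With the levels of these lists as covariates 31 members were lower in controls and 22 in CF mice, where the median difference was -0.74.

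**Figure D3:**
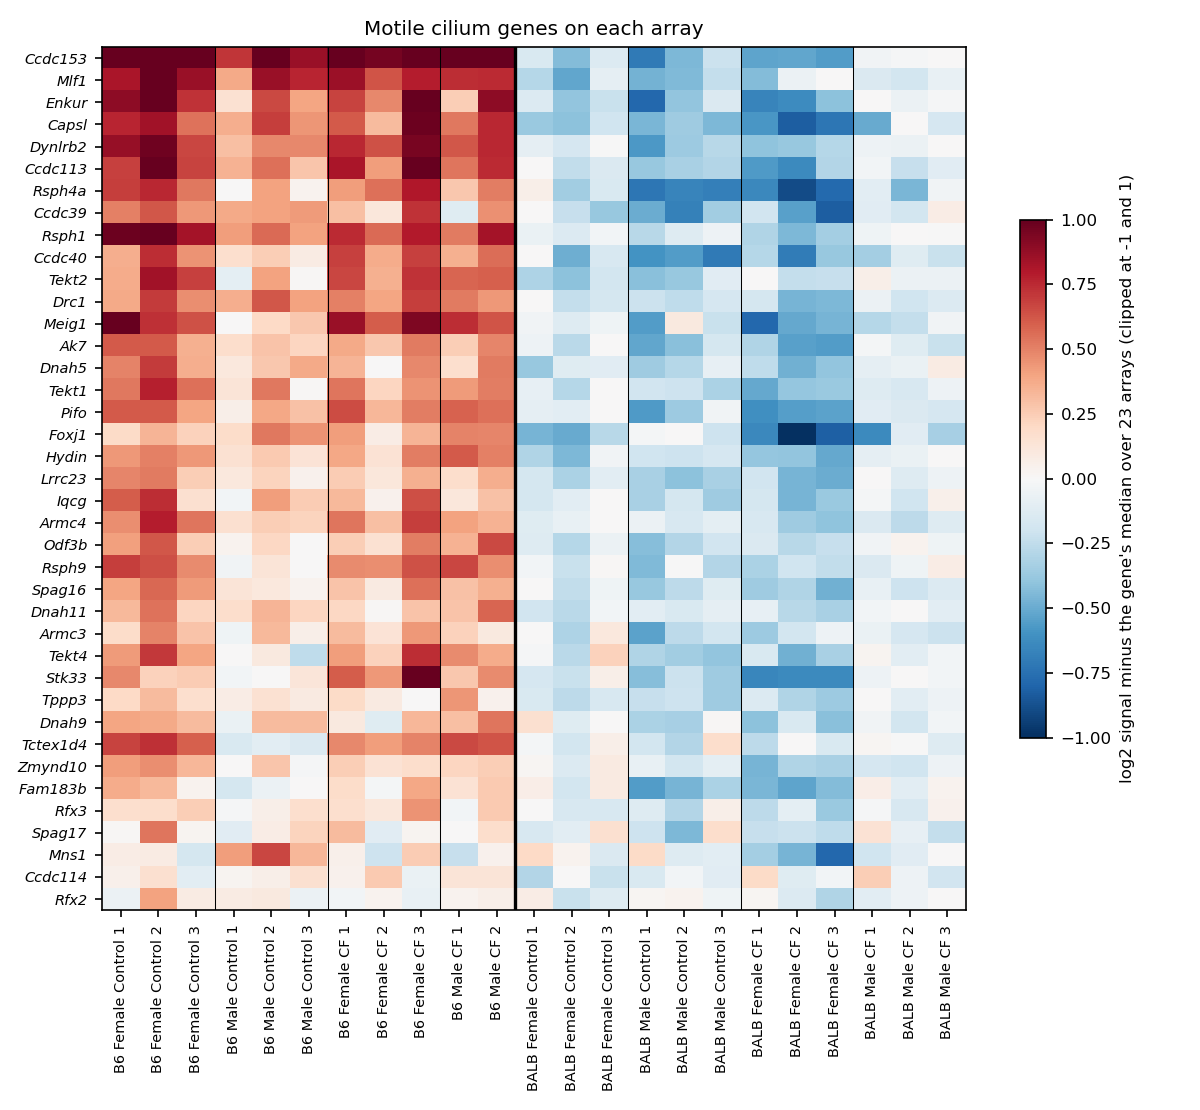
Log2 value of 39 motile cilium genes on 23 arrays, each with the median of its gene subtracted, with colours limited at -1 and 1 and genes ordered by the strain difference in controls. The B6 arrays are mostly above and the BALB arrays mostly below the gene medians.

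Besides the brightest, 15 other probe sets were read for the 9 members that have several, and 12 of these had a mean under 4. In controls 4 of the 15 were lower in BALB, namely probe sets of Armc3 and Ccdc39 and 2 of Odf3b, and 0 were higher. In CF mice 4 were lower, of which 1 was a second probe set of Spag17 at -0.31. For Dnah9, Hydin, Spag16 and Rfx3 no other probe set was called. The strain difference was also set beside the X-box matches, with no test of the difference. With a match, 13 of 17 were lower in BALB in controls, with a median of -0.45, and without one 16 of 16 were lower, with a median of -0.61. Ccdc114, Spag17, Mns1 and Rfx2, the members not called, all held a match.

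The other genes of the cilium showed the strain difference in part. Of 19 further dyneins and assembly factors, 13 were lower in BALB in controls and 0 higher, with a median of -0.39, among them Dnah7a at -0.79, Dnali1 at -0.66, Dnaaf1 at -0.57 and Dnah2 at -0.49. Of 45 further axoneme genes, 30 were lower and 0 higher, with a median of -0.47. Cfap52, at -1.18, Morn5, at -1.0, Cfap206, at -0.75, and Tcte1, at -0.73, had the lowest p-values. In CF mice the counts were 15 of 19 and 32 of 45.

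Genes of steps shared with other cilia, or of the making of many basal bodies, differed less. Of 37 genes of intraflagellar transport, the carrier system that builds cilia of every kind, and of the BBSome, 19 were lower in BALB controls and 1 higher, with a median of -0.19. Traf3ip1 was at -0.80, Ift27 at -0.49, Wdr19 at -0.47 and Ttc26 at -0.40, while Ift46 was higher at 0.25. Of 12 multiciliogenesis genes, which drive the multiplication of centrioles, 3 were lower and 0 higher, with a median of -0.02. They were Deup1 at -0.55, Ccno at -0.31 and Myb at -0.31, and Trp73 was at -0.23 with adjusted p = 0.0881.

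Markers of the other airway and alveolar cells gave these values in the same control comparison. Of 19 club cell genes 9 were lower in BALB and 0 higher, with a median of -0.35. Lypd2 was at -0.89, Cldn10 at -0.71, Aox3 at -0.63 and Scgb3a2, a secretoglobin, at -0.54. The most negative difference of this list was that of Bpifb1, at -2.20 with adjusted p = 4.72e-06 by limma. Scgb1a1, the main club cell secretoglobin, was at -0.02 with adjusted p = 0.808, and Cyp2f2, a cytochrome P450 of club cells, at -0.07 with adjusted p = 0.357. Scgb1a1 read 13.57 to 13.75 over all arrays, near the highest value of the series, 13.82, which limits what it can show. Of 12 genes of basal cells and general epithelium 1 was lower, with a median of -0.08. Of the alveolar markers, 2 of 10 type 1 genes and 3 of 11 type 2 genes were lower, with medians of 0.04 and -0.10. The part of the lower club cell genes in the result was not tested.

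**Figure D4:**
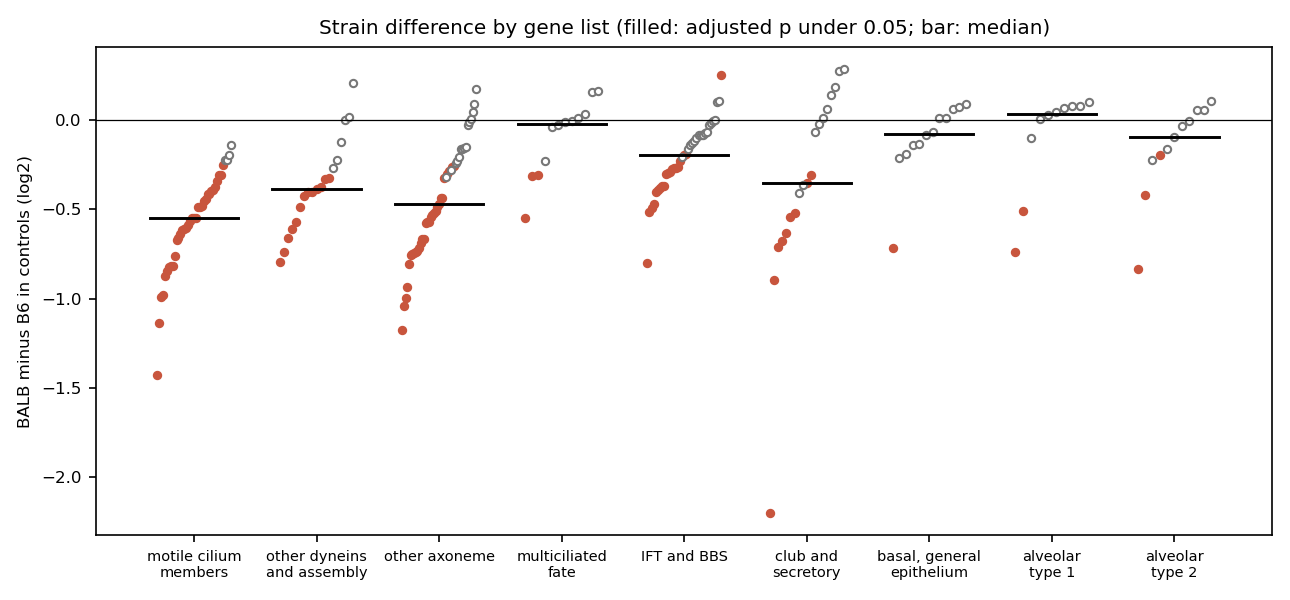
BALB minus B6 log2 difference in controls for each gene of 9 lists, with filled points at an adjusted p under 0.05 by limma and bars at list medians. Of these 9 lists the motile cilium genes have the lowest median, -0.548, and the medians of the alveolar lists lie near 0.

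When the sexes were averaged, the motile cilium genes were called between CF mice and controls about as rarely as all genes were. In B6 mice 2 of the 39 members were higher in CF mice and 0 lower, where 5.43% of all genes were called in either direction and 3.92% higher. In BALB mice 1 member was lower in CF mice and 0 higher, where 5.53% were called in either direction and 2.66% lower. The median difference was 0.04 in B6 and -0.01 in BALB. The 95% intervals of the members' differences lay within -0.48 to 0.57 in B6 and -0.58 to 0.41 in BALB.

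Stk33, a kinase of ciliated cells, was higher in B6 CF mice. It read 5.43, 5.18 and 5.20 in B6 control females, 4.92, 4.95 and 5.06 in B6 control males, 5.55, 5.38 and 6.07 in B6 CF females, and 5.22 and 5.42 in B6 CF males. Within each sex the CF arrays were above the control arrays except that the lowest CF female was below the highest control female. The difference was 0.37 ± 0.09 (SE) with adjusted p = 0.0268. The call ended without either B6 CF male, without B6 control male 1 or 2, and without B6 control female 2 or 3, with adjusted p from 0.0525 to 0.104. Tctex1d4 was higher by 0.29 ± 0.07 (SE) with adjusted p = 0.0279, and this call ended without B6 CF male 1 or 2, B6 control male 1 or 3, B6 control female 3 or B6 CF female 3, with adjusted p up to 0.117. The largest differences without a call in B6 were -0.26 for Mns1 (adjusted p = 0.166), 0.26 for Meig1 (0.204) and 0.23 for Rsph9 (0.102).

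Foxj1 was lower in BALB CF mice than in their controls, with a difference of -0.38 ± 0.10 (SE) and adjusted p = 0.0286, on the array values given above. The CF and control arrays overlapped in males and did not in females. The call ended without BALB CF male 1 or 3, BALB control male 1 or 2, BALB CF female 2, or BALB control female 1 or 3, with adjusted p from 0.0507 to 0.0786. With the arrays rich in squamous and muscle RNA left out, which removes all BALB CF females, the difference was -0.28 with adjusted p = 0.31, and the part of that RNA in the result was not tested further. In B6 mice Foxj1 differed by 0.06 with adjusted p = 0.828. Mlf1 differed by -0.04 in B6 and 0.19 in BALB and Rsph1 by -0.01 and -0.07, with adjusted p from 0.284 to 0.96. The largest differences without a call in BALB were -0.33 for Mns1 (adjusted p = 0.0574), -0.24 for Meig1 (0.206) and 0.21 for Tekt2 (0.221).

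The other cilium lists also gave few calls between CF mice and controls, where 5.43% of all genes were called in B6 and 5.53% in BALB. In B6 0 of 45 further axoneme genes, 0 of 19 dynein genes and 0 of 37 intraflagellar transport genes passed the test in limma, and 1 of 12 multiciliogenesis genes was higher, Plk4, the kinase that starts centriole duplication, at 0.44 with adjusted p = 0.00647. In BALB the calls were 0 of 45, 1 of 19, 0 of 37 and 0 of 12, and the dynein assembly gene Spag1 was the lower one, at -0.38 with adjusted p = 0.0312. Leukocyte markers moved with the genotype, with 7 of 10 higher in B6 CF mice and 6 of 10 in BALB CF mice, and medians of 0.51 and 0.78. Csf3r, the neutrophil receptor for granulocyte colony-stimulating factor, was higher by 0.98 in each strain. The part of these cells in the cilium values was not tested.

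Whether the CF difference itself depended on strain was tested as an interaction. By limma 0 of the 39 members were called, with 5 at an unadjusted p under 0.05, where 2.23% of all genes were called. The smallest adjusted p was 0.0516, for Stk33, whose CF difference in BALB minus that in B6 was -0.48. Meig1 followed at -0.49 with adjusted p = 0.0803, and Foxj1 was at -0.44 with adjusted p = 0.107.

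Some motile cilium genes were higher in female than in male controls. Of the 39 members 9 were higher in females and 0 lower, with a median of 0.24, where 2.51% of all genes were called higher, and 36 differences were above 0. The 9 were Rsph4a (0.53), Tekt4 (0.45), Tctex1d4 (0.43), Meig1 (0.41), Ccdc40 (0.38), Fam183b (0.38), Dynlrb2 (0.37), Rsph9 (0.37) and Rsph1 (0.28), with adjusted p from 0.00206 to 0.0323, so that all 3 radial spoke head genes were among them. Leukocyte markers moved with the same contrast, 3 of 10 being higher in females with a median of 0.29, while squamous and muscle genes had medians of -0.53 and -0.43 with 0 of 12 called in each. The part of the leukocytes in the result was not tested. Intestinal RNA was high on control arrays of both sexes, and the intestinal genes had a median of 0.25 with 0 of 11 called. With the squamous, muscle and intestinal lists as covariates the count was 5. Leaving out single arrays gave counts from 5, without B6 control female 2, to 13, without BALB control female 2. Dynlrb2, Fam183b, Rsph4a, Rsph9 and Tctex1d4 kept their call in each of these 23 fits. Of the other cilium lists, 7 of 45 further axoneme genes, 4 of 19 dynein genes and 8 of 37 intraflagellar transport genes were higher in control females, and 1 of 19 club cell genes.

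In CF mice the sexes were the other way round in sign, without calls. This comparison was added after the data were seen. By limma 0 members were called and 15 were at an unadjusted p under 0.05, where 0.198% of all genes were called, and 37 of 39 were lower in females, with a median of -0.14. The smallest adjusted p was 0.0867, for Hydin at -0.30.

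The CF difference was therefore also read within each sex, in comparisons that share their control arrays with the comparison of the sexes in controls. In B6 males 4 members were higher in CF mice and 1 lower, with a median of 0.19, where 7.4% of all genes were called. In the same comparison 7 of 10 leukocyte genes were higher, with a median of 0.97. Squamous and muscle genes, high in 1 of the B6 control males, had medians of -1.08 and -1.02 with 0 of 12 called in each. Without the arrays rich in squamous and muscle RNA, or with the covariates, 3 members were higher and 1 lower in B6 CF males, and the part of the leukocytes was not tested. Tctex1d4 read 5.48, 5.52 and 5.49 in B6 control males and 6.29 and 6.26 in B6 CF males, against 6.30, 6.36 and 6.23 in control females and 6.11, 6.05 and 6.13 in CF females. The control males thus stood below the other B6 groups. The difference in males was 0.78 with adjusted p = 0.000275, and it kept its call in each of the 23 fits without an array. Rsph9 was higher by 0.54 with adjusted p = 0.00745, and without B6 CF male 1 the adjusted p was 0.148. Hydin was higher by 0.37 (adjusted p = 0.0406) and Odf3b by 0.42 (adjusted p = 0.0429). Single arrays left out ended the Hydin call in 6 of 23 fits and the Odf3b call in 10, with adjusted p up to 0.294 and 0.354. Both calls also ended with the covariates and without the arrays rich in squamous and muscle RNA, with adjusted p from 0.107 to 0.151. Mns1 read 5.99, 6.23 and 5.90 in B6 control males and 5.34 and 5.61 in B6 CF males, a difference of -0.57 with adjusted p = 0.0302. Without B6 CF male 1 the count of calls was 1. In B6 females 0 members were called and 3 were at an unadjusted p under 0.05, with a median of -0.11, where 0.929% of all genes were called.

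In BALB females 6 members were lower in CF mice and 0 higher, with a median of -0.27, where 0.682% of all genes were called lower. They were Rsph4a (-0.63), Mns1 (-0.56), Stk33 (-0.53), Pifo (-0.50), Fam183b (-0.46) and Zmynd10 (-0.35), with adjusted p from 0.0283 to 0.049. Rsph4a read 5.35, 4.94 and 5.14 in BALB control females and 4.64, 4.39 and 4.51 in BALB CF females, without overlap. Its BALB males ran the other way, at 4.56, 4.63 and 4.60 in controls and 5.19, 4.83 and 5.25 in CF mice. All 3 BALB CF females were high in genes of squamous epithelium and muscle, with the squamous keratin Krt4 at 9.94 to 12.46. Against BALB control females 6 of 12 squamous genes, 6 of 12 muscle genes and 3 of 10 leukocyte genes were higher, with medians of 2.24, 1.98 and 0.75. With the levels of the other-tissue lists as covariates 0 members were called, with a median of -0.30, and the part of that RNA in the result was not tested further. The count was also 0 without BALB CF female 2 or 3, and without BALB control female 1 or 3. In BALB males 1 member was higher, Fam183b at 0.45 with adjusted p = 0.032, with a median of 0.20, where 2.12% of all genes were called.

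Fam183b, a microtubule-associated protein of cilia, was called in BALB females and in BALB males, and its array values are given as an example. It read 6.97, 6.72 and 7.0 in BALB control females, 6.34, 6.44 and 6.59 in control males, 6.45, 6.37 and 6.47 in CF females, and 6.97, 6.80 and 6.94 in CF males. Control females and CF males were thus at one level, and control males and CF females at a lower one. These values are the ones behind its calls, and not every member shared the pattern. Foxj1, on the array values given above, averaged lower in BALB CF mice than in controls in both sexes.

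The difference between the sexes in the CF difference was tested directly. In B6, 2 members were called, Tctex1d4 at -0.98 with adjusted p = 0.00361 and Rsph9 at -0.62 with adjusted p = 0.0466, with a median of -0.33, where 2.05% of all genes were called. Rsph9 lost its call in 14 of the 23 fits without an array, and Tctex1d4 in 0. In BALB, 2 members were called, Rsph4a at -1.12 and Fam183b at -0.91, both with adjusted p = 0.0399, with a median of -0.42, where 0.0275% of all genes were called. These calls were lost in 15 and 13 of the 23 fits. In sign, 30 members in B6 and 31 in BALB were lower in CF females and higher in CF males than in their controls, and 25 did so in both strains. The share of all genes with these signs was not counted. Since the members moved together from array to array in some groups, the signs are not separate observations.

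**Figure D5:**
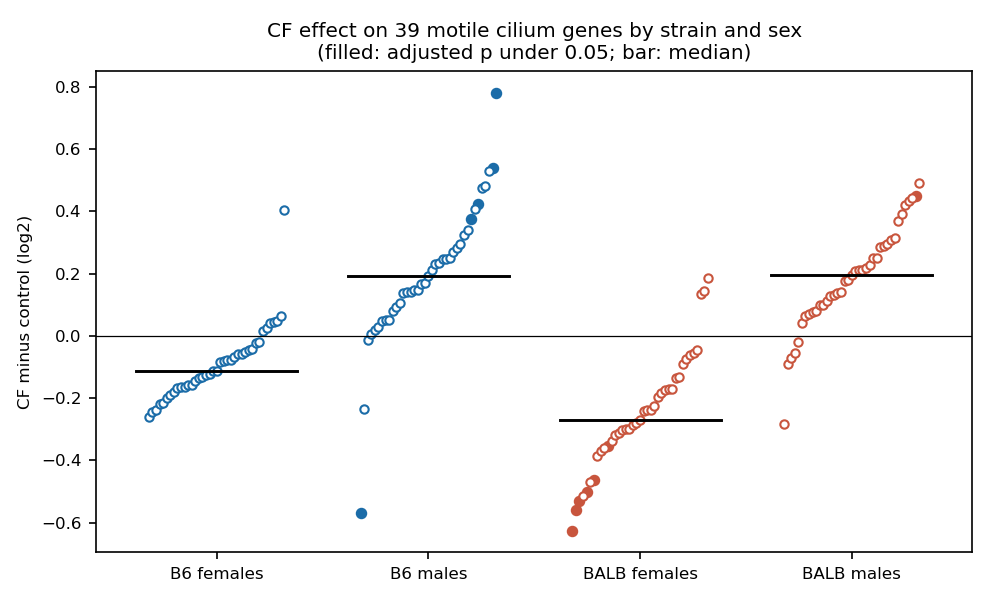
CF minus control log2 difference of 39 motile cilium genes in each strain and sex. The medians are -0.11 in B6 females, 0.19 in B6 males, -0.27 in BALB females and 0.20 in BALB males.

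The members moved together from array to array within some groups as well. Among the B6 control females, replicate 2 was the highest for 33 of the 39 members. Of the B6 CF females, replicate 2 was the lowest for 35 and replicate 3 the highest for 30. Among the B6 control males replicate 2 was the highest for 29, and replicate 2 of the BALB control females was the lowest for 31. In the other groups the split was less one-sided. Replicates 1, 2 and 3 were the highest for 15, 7 and 17 members in BALB CF males and for 21, 8 and 10 in BALB CF females. In BALB control males they were the highest for 5, 11 and 23, and in B6 CF males replicates 1 and 2 for 12 and 27. The same count over all genes was not made. The level of the 39 genes on an array, as the median of value minus gene median, ran from 0.10 to 0.62 on B6 arrays and from -0.45 to -0.05 on BALB arrays, so the strains did not overlap on this summary.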

How the data were processed

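The series is a set of 23 one-colour expression arrays of mouse whole right lung, 1 value per probe set and array. The deposited values, taken here as log2 because of their range of 1.79 to 13.82 and equal array medians, were used as the authors gave them. How they were summarised and normalized is not given in the sources used here. The number of arrays limits the precision.

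Of 45101 probe sets, 64 controls were left out. GEO's platform annotation gave 34945 of the rest 1 symbol, 932 several and 9160 none, and genes were named only from probe sets with 1 symbol. The 8 group means were estimated in limma 3.58.1 (R 4.3.3) on all 45037 probe sets, with 15 residual degrees of freedom. P-values were adjusted by Benjamini-Hochberg over all probe sets within a comparison, and an adjusted p under 0.05 was a call. Shares over all genes use the brightest probe set of each of 18193 genes. Contrasts average the sexes unless a sex is named. Groups of 3 against 3 could not go below p = 0.1 in an exact test, so the shared fit was used.

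The members and gene lists were chosen with earlier results of these data known. Named were all members called in a comparison, the 3 largest uncalled ones for the CF effects, Foxj1, Mlf1 and Rsph1 on every array, Cftr, and up to 4 genes of lowest p from each other cilium or airway list, with defining markers added. Bpifb1 was named besides for its size. An array counted as rich in other-tissue RNA when its list level was above 0.3, and for squamous and muscle RNA either list sufficed. Replicate numbers did not pair samples, since deviations of same-numbered arrays correlated between -0.185 and 0.347. The fit was tested on simulated data. Promoters are from RefSeq, assembly GRCm38.p6, with 33 of 39 members matched by symbol, and were searched in the printed window only.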

Additional observations from a re-analysis of the deposited data

Results flagged for a closer look

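In the controls of each strain, with both sexes together, 3 values stood apart from the other arrays of their group by Dixon's test at 95%. Dnah9, an outer arm dynein heavy chain, read 5.34 in B6 control male 1, against 5.73 to 5.80 on the other B6 controls. Drc1 of the nexin-dynein regulatory complex read 5.84 in BALB control female 1, against 5.59 to 5.67. Rfx2 read 5.70 in B6 control female 2, against 5.24 to 5.4. Over 156 groups looked at, chance gives about 7.8 such values at 1 in 20.

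The CF difference differed between the sexes by the interaction test in limma for 4 genes, each lower in females than in males. In B6 these were Tctex1d4 at -0.98 (adjusted p = 0.00361) and Rsph9 at -0.62 (adjusted p = 0.0466). In BALB these were Rsph4a at -1.12 and Fam183b at -0.91, both with adjusted p = 0.0399.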

How the results depend on the processing

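Without the arrays rich in intestinal RNA the control comparison of the strains held 1 BALB array, so its count is left out here. Under every other setting but 1 the strain difference kept its direction and its count within 1.5 times of 35. In controls the count was at most 35 and was lowest with the squamous, muscle and intestinal levels as covariates. In CF mice it was 26 to 36, apart from 22 with those covariates, where more parameters were fitted to the same arrays. Leaving out single arrays gave 34 to 35 in controls and 34 to 36 in CF mice. The counts for the CF effect are small and moved with some settings, and the cause was not tested. In B6, where the count was 2, it was 1 with only the groups of the comparison, with the covariates or without the arrays rich in squamous and muscle RNA, and 4 without those rich in intestinal RNA. In BALB the count of 1 became 3 after quantile normalization and 2 with centred arrays, the filter on low values or array weights. It was 0 with only the groups of the comparison or with the covariates. Leaving out the arrays rich in intestinal RNA left 1 BALB control array, so no count is given for that setting. Without the arrays rich in squamous and muscle RNA, which leaves BALB males alone, the BALB call on Foxj1 was replaced by 1 higher gene, and the median turned from -0.01 to 0.20. The median of the strain difference of the CF effect turned from -0.08 to 0.16. This strain difference gave 0 calls and became 1 after quantile normalization, centring, the filter, the replicate block or array weights. Single arrays left out gave 0 to 2 for each of these 3. The settings on covariates and other-tissue arrays, and all settings for the sex comparisons, were chosen after seeing the data. With the covariates the count was 5 for females against males in controls, 0 for the CF effect in BALB females, and 1 and 0 for the sex difference of the CF effect in B6 and BALB. The B6 count was also 1 without the arrays rich in squamous and muscle RNA. Single arrays left out gave 5 to 13 for the sexes in controls, 1 to 7 for the CF effect in B6 males, 0 to 6 in BALB females, and 1 to 3 and 0 to 3 for the sex differences in B6 and BALB.

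With the replicate number as a block the counts were 35 and 35 for the strain difference in controls and CF mice, 2 and 1 for the CF effect in B6 and BALB, and 1 for its strain difference. They were 9 for the sexes in controls, 4 for the CF effect in B6 males and in BALB females, and 1 for its sex difference in B6 and in BALB. The numbers did not pair the samples. Of single genes without a call, Meig1 turned to 0.0423 in the BALB CF effect without the arrays rich in squamous and muscle RNA, and Mns1 to 0.0857 in the control strain difference without those rich in intestinal RNA. Rfx2 turned to 0.0235 in the CF strain difference with the mean over probe sets and to 0.0232 with the covariates. Dim probe sets limit what Spag17 and the second probe sets of other genes can show.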
